A study of Homo sapiens with 18 samples.

Results

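Levels of 8 human genes of cholesterol uptake, trafficking and efflux, taken by symbol from the 25343 genes of the tables, were compared across 18 tumour libraries. They are STARD4, NPC1 and NPC2, which move cholesterol inside the cell, MYLIP, ABCA1 and ABCG1, which are induced by the liver X receptors (LXRs) and act on uptake or efflux, and NR1H2 and NR1H3, which encode the LXRs themselves. The tumours were xenografts in mice of HCT116 cells, a human colon cancer line, and every tumour carried a knockout of PTDSS2, the gene of phosphatidylserine synthase 2. The mice received DS55980254 by mouth, and the series title speaks of an inhibitor of phosphatidylserine synthase 1, the partner enzyme of this step. There were 6 libraries at 10 mg/kg, 6 at 30 mg/kg and 6 from mice given the 0.5% methylcellulose vehicle, all from tumours taken 24 hours after dosing. The labels do not say how many knockout clones were used, and they do not say whether each library came from a separate mouse, so p-values measure the spread between these libraries.

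Cells keep their sterol level by balancing synthesis and uptake against export. When sterol in the endoplasmic reticulum is low, SREBP transcription factors are released and raise genes of cholesterol synthesis and lipoprotein uptake, and also STARD4. When oxysterols accumulate, LXRs bound to retinoid X receptors raise ABCA1 and ABCG1, which pass cholesterol to acceptors outside the cell, and MYLIP (also called IDOL), a ubiquitin ligase that marks lipoprotein receptors for degradation. NPC2 and NPC1 hand cholesterol out of the lysosome in turn, the first as a soluble carrier and the second as the membrane protein that receives it.

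The promoters of 7 members were found in the RefSeq table (GRCh38.p14), which gives 250 bases before and 50 bases after each start, and the table had 11 promoters for them. ABCG1 had no entry. A pair of stretches is shown because it sets the SREBP-driven trafficking gene beside an LXR-driven efflux gene. The first is STARD4 at chr5:111512636-111512735 on the minus strand, 200 to 101 bases before the start, with CCAAT boxes in capitals. The second is ABCA1 at chr9:104928179-104928254 on the minus strand, 99 to 24 bases before the start, with the closest match to an LXR element in capitals.

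STARD4: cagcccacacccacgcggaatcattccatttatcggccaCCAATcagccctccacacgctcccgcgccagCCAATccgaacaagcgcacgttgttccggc
ABCA1: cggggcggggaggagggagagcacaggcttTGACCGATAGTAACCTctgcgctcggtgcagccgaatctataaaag

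The ABCA1 element lies on the opposite strand at chr9:104928209-104928224, where it reads as a direct repeat of AGGTCA with 4 bases between (a DR4 element). Capitals mark its repeated parts.
ABCA1 element: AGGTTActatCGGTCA
Counted from 1 at the 5′ end of the element, it differs from the repeat by C5T and A11C. With at most 2 mismatches allowed on both strands, such a repeat was present in 1 of the 11 promoters of the 7 members and in 2.34% of all 35116 promoters. The sterol regulatory element core ATCACCCCA, searched on both strands, was in none of the 7 and in 0.219% of all promoters. Among the 17 genes with a promoter in a list of cholesterol synthesis and its regulators, it was in 1, SREBF2, which encodes an SREBP. CCAAT was added to the search after the promoters had been read. It was present on either strand in 1 promoter each of STARD4, MYLIP, NPC2 and NR1H3. That is 4 of the 11 promoters of members, beside 34.6% of all promoters. More than 1 copy stood in 10.8% of all promoters, and in 1 promoter each of STARD4, MYLIP and NPC2.

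All 8 genes had enough counts to be tested, but depth differed. The library of 10 mg/kg replicate 2 held 433981 counts, against 3435423 to 8538792 in the other 17. Its log2 levels over all tested genes had a mean correlation of 0.726 with the other libraries, whereas the other 17 had 0.942 to 0.954. Olfactory receptor genes, best known from the nasal epithelium, gave 4.79 CPM (counts normalised for library size) per kilobase there, 2.09 in 10 mg/kg replicate 4 and 1.23 to 1.95 elsewhere, over 376 genes. A narrower set of 359 such genes below the expression filter was looked at after those values were seen. It gave 4.02 in 10 mg/kg replicate 2, 1.12 in 10 mg/kg replicate 4 and 0.745 in 30 mg/kg replicate 5. The epithelial markers EPCAM, KRT8, KRT18, KRT19 and CDH1 were high in every library, with medians over libraries of 379 CPM for EPCAM and 2705 CPM for KRT8. VIL1, CEACAM5 and LGALS4, genes of mature colon epithelium, had medians under 1 CPM. PTDSS2 itself was counted at a median of 8.72 CPM at 10 mg/kg, 6.30 CPM at 30 mg/kg and 8.63 CPM in vehicle tumours, and no library without the knockout was analysed here.

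Per transcript length, NPC2 was the most abundant of the 8 genes and ABCA1 and ABCG1 the least. In vehicle tumours the median level was 84.4 TPM (transcript abundance scaled for length and depth) for NPC2, 39.3 TPM for NR1H2 and 20.3 TPM for STARD4. NPC1 followed at 16.6 TPM and NR1H3 at 15.5 TPM, and these neighbours overlapped over the 6 vehicle libraries. MYLIP had a median of 13.4 TPM, ABCA1 2.11 TPM and ABCG1 1.19 TPM, and ABCA1 and ABCG1 overlapped as well. Of the LXR genes, NR1H2 was thus the more abundant, with 30.2 to 45.5 TPM against 14.1 to 16.5 TPM for NR1H3. The order of the medians was the same at 30 mg/kg, where STARD4 had 38.2 TPM and NR1H2 39.9 TPM. NR1H2 was above STARD4 in 3 of these 6 libraries and in 6 of 6 vehicle libraries. At 10 mg/kg STARD4 had a median of 33.4 TPM, MYLIP and NR1H3 both had 12.5 TPM, and ABCG1 at 1.84 TPM stood above ABCA1 at 1.74 TPM. At that dose no neighbouring genes were fully apart except NR1H3 and ABCG1.

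**Figure D1:**
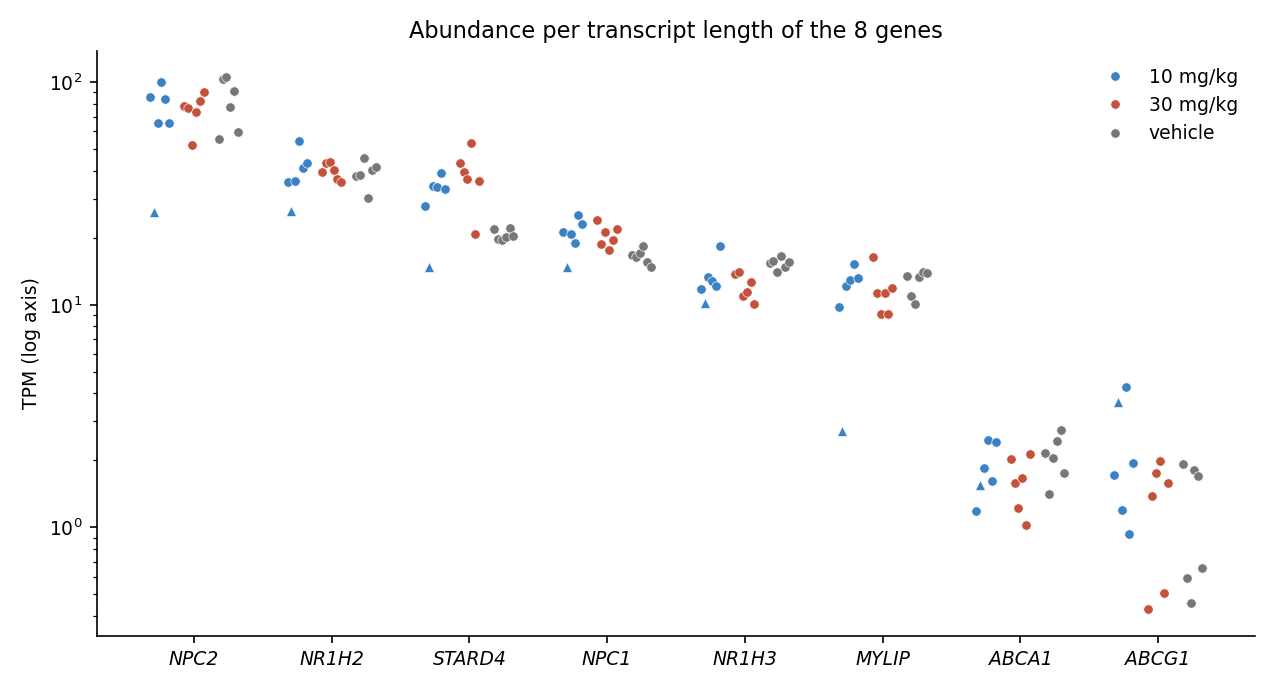
Level per transcript length (TPM, log axis) of each gene in each of the 18 libraries, with 10 mg/kg, 30 mg/kg and vehicle libraries side by side and the shallow library of 10 mg/kg replicate 2 as a triangle. NPC2 leads in every group, ABCA1 and ABCG1 lie lowest, and STARD4 reaches the level of NR1H2 at 30 mg/kg.

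STARD4, a soluble protein that carries cholesterol between membranes, was the gene of the 8 that rose at both doses. Its levels at 10 mg/kg were 31.8, 25.7, 38.2, 38.2, 41.6 and 35.6 CPM in replicates 1 to 6. Those at 30 mg/kg were 45.8, 43.9, 42.3, 58.8, 25.5 and 40.9 CPM. Vehicle tumours held 23.7, 21.7, 23.0, 22.4, 24.0 and 23.3 CPM. Each dosed library was above the highest vehicle library, and the vehicle libraries lay within a far narrower range than the dosed ones. The lack of overlap rests in part on that narrow range, from 96 to 110 STARD4 counts per vehicle library. How far the range is narrow by chance was not tested. The mean level of STARD4 was 35.2 ± 5.68 CPM at the dose of 10 mg/kg, 42.9 ± 10.7 CPM at 30 mg/kg, and 23.0 ± 0.855 CPM with vehicle (SD, n = 6 each).

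At 10 mg/kg the log2 fold change of STARD4 over vehicle was 0.66 ± 0.15 (SE), a 1.58-fold rise, with an adjusted p of 0.0401 by edgeR's quasi-likelihood test over 14074 genes. At 30 mg/kg it was 0.90 ± 0.14, a 1.86-fold rise, with an adjusted p of 0.00124 by the same test. The 95% interval of the log2 fold change ran from 0.35 to 0.96 at 10 mg/kg and from 0.60 to 1.20 at 30 mg/kg. By exact two-sided permutation of log2 CPM, each dose gave p = 0.00216, the smallest that 6 against 6 libraries allow, given here as a raw p from 24 such tests. Both comparisons use the same vehicle libraries.

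Among all tested genes, 0.419% were called higher and 0.0497% lower at 10 mg/kg, and 0.568% higher and 0.0497% lower at 30 mg/kg. Of the 8 members, 1 was called higher at each dose, STARD4, and 0 lower. The unadjusted p was under 0.05 for 1337 genes at 10 mg/kg and 1112 at 30 mg/kg. Groups that did not overlap in CPM made up 1.16% of all tested genes at 10 mg/kg and 1.73% at 30 mg/kg. The members held 2 at 10 mg/kg, STARD4 and NPC1, and 2 at 30 mg/kg, STARD4 and NR1H3.

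The call on STARD4 was firmer at 30 mg/kg than at 10 mg/kg. With any 1 of the 18 libraries left out, the adjusted p by edgeR at 30 mg/kg stayed at or below 0.00483. At 10 mg/kg it exceeded 0.05 when any vehicle library was left out, or replicate 3, 4, 5 or 6 at 10 mg/kg, or replicate 6 at 30 mg/kg, and reached 0.0977 at most. The log2 fold change at 10 mg/kg then lay between 0.61 and 0.70 over all 18. On the TPM scale the groups overlapped: STARD4 had 14.8 TPM in 10 mg/kg replicate 2, below all vehicle libraries (19.6 to 22.1 TPM), and 20.7 TPM in 30 mg/kg replicate 5. The other 10 dosed libraries had 27.7 to 53.5 TPM. By limma on log2(TPM + 1), neither dose passed, with adjusted p of 0.573 at 10 mg/kg and 0.261 at 30 mg/kg. In 10 mg/kg replicate 2 the level rests on 12 counts, and in 30 mg/kg replicate 5 on 93. Leaving out both of these libraries gave log2 fold changes of 0.69 and 1.01 with adjusted p of 0.000914 and 2.35e-06 by edgeR. Both were the lowest STARD4 libraries of their dose groups, at 25.7 and 25.5 CPM. Larger fold changes without them therefore follow from the choice and add no evidence for the rise.

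Between the doses, STARD4 was 1.18-fold higher at 30 mg/kg than at 10 mg/kg, with a 95% interval from 0.964 to 1.45-fold. Permutation of the 6 against 6 libraries gave p = 0.197 (exact, two-sided), and the adjusted p was 0.969 by edgeR. No gene of the 14074 was called between the doses by edgeR (0.0%), while 496 had an unadjusted p under 0.05, and DESeq2 and limma-voom called 0 as well. The dose step was therefore not detectable for any of the 8 genes.

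**Figure D2:**
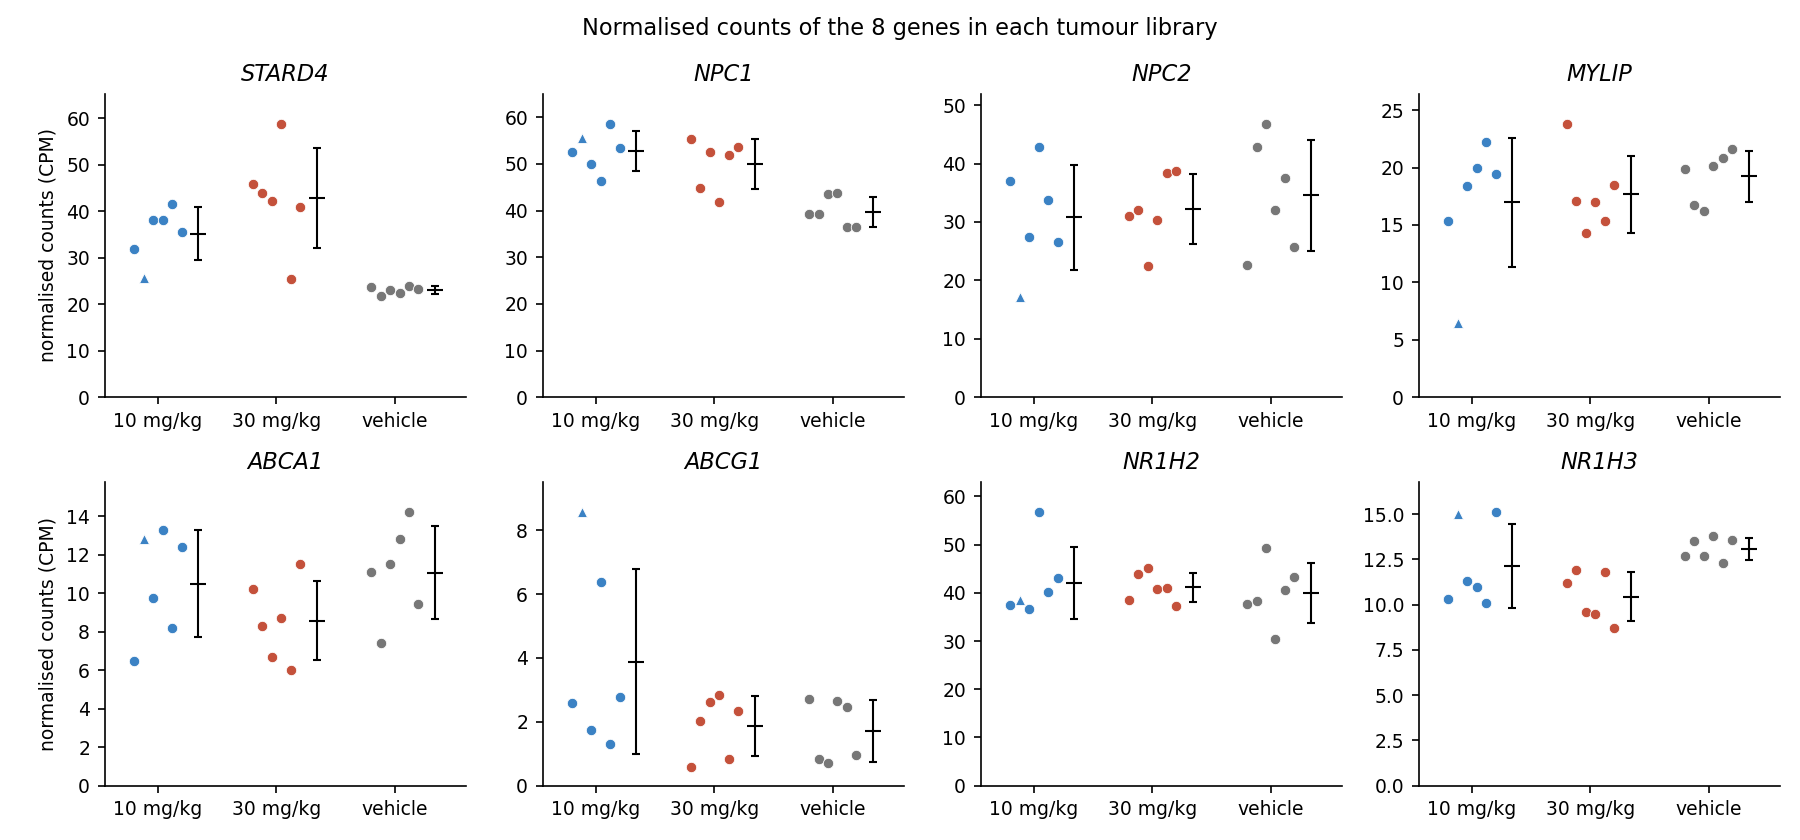
Normalised counts (CPM, linear axis from 0) of the 8 genes in each library by group, with the mean and SD of 6 libraries as a bar beside the points and 10 mg/kg replicate 2 as a triangle. STARD4 lies above all vehicle libraries at both doses, and NPC1 does so at 10 mg/kg.

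NPC1, the lysosomal membrane protein whose loss causes Niemann-Pick disease type C, had higher values at both doses but did not pass the test over all genes. Its levels were 52.5, 55.6, 49.9, 46.3, 58.6 and 53.5 CPM at 10 mg/kg. They were 55.3, 44.9, 52.6, 41.9, 52.0 and 53.7 CPM at 30 mg/kg. Vehicle tumours held 39.3, 39.3, 43.5, 43.7, 36.5 and 36.4 CPM. All 6 libraries at 10 mg/kg and 5 of 6 at 30 mg/kg were above the highest vehicle library.

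For NPC1 the log2 fold change was 0.40 ± 0.10 (SE) at 10 mg/kg, with a 95% interval from 0.19 to 0.61 and an adjusted p of 0.105 by edgeR. At 30 mg/kg it was 0.33 ± 0.10, with an interval from 0.13 to 0.54 and an adjusted p of 0.204. Exact permutation over libraries gave p = 0.00216 at 10 mg/kg and p = 0.00866 at 30 mg/kg, both two-sided and raw. The call at 10 mg/kg depended on the test, since DESeq2 gave an adjusted p of 0.0186 and voom with sample weights 0.0192. On the TPM scale 10 mg/kg replicate 2 held 14.8 TPM, level with the lowest vehicle library, and the other 5 at that dose held 19.0 to 25.4 TPM.

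NPC2, the soluble partner of NPC1, varied as widely among vehicle tumours as among dosed ones. It ranged from 17.1 through a median of 30.7 to 42.8 CPM at 10 mg/kg, from 22.5 through 31.6 to 38.8 CPM at 30 mg/kg, and from 22.6 through 34.8 to 46.8 CPM in vehicle tumours. The groups overlapped over most of their range. On the log2 scale its fold change was -0.10 at 10 mg/kg (95% interval -0.48 to 0.28, adjusted p 0.896 by edgeR) and -0.11 at 30 mg/kg (-0.48 to 0.27, adjusted p 0.973).

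**Figure D3:**
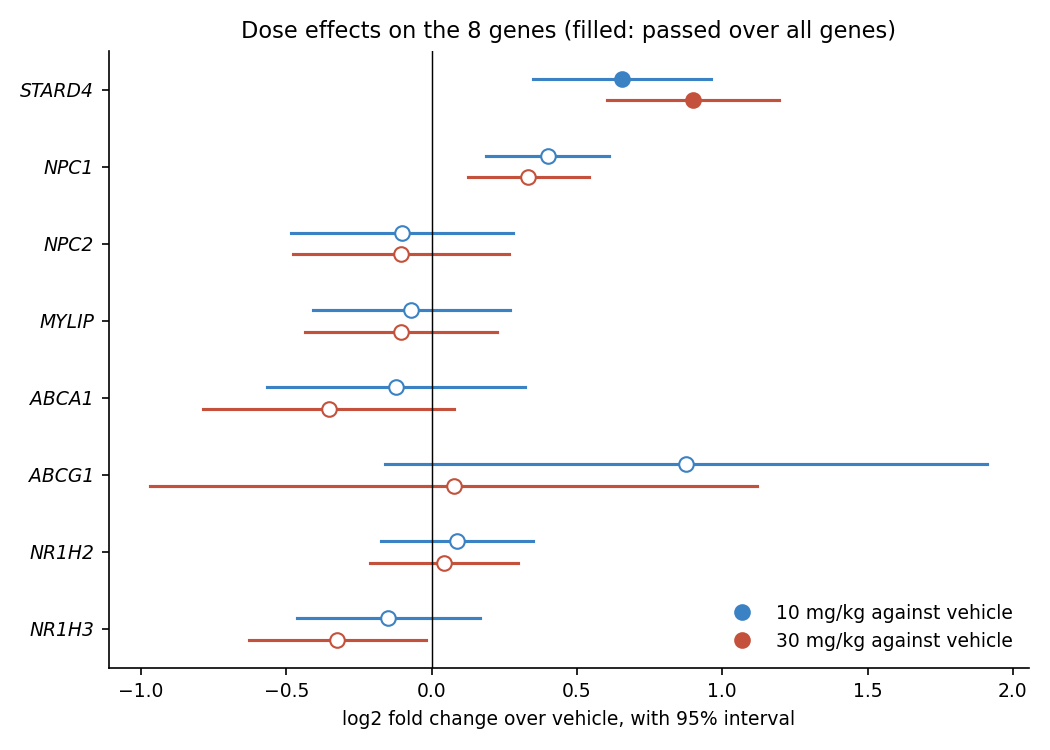
Log2 fold change over vehicle of each gene at 10 mg/kg and 30 mg/kg, with 95% intervals from the edgeR fit. Filled circles passed 0.05 after adjustment over all genes, which STARD4 did at both doses; the interval of ABCG1 is the widest.

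The 3 LXR-driven genes did not pass the test in either direction. MYLIP had 15.3, 6.42, 18.4, 20.0, 22.2 and 19.4 CPM at 10 mg/kg. At 30 mg/kg it had 23.8, 17.1, 14.3, 17.0, 15.3 and 18.5 CPM, and in vehicle tumours 19.9, 16.7, 16.2, 20.1, 20.8 and 21.6 CPM, so that the groups overlapped. The low value of 6.42 CPM rests on 3 counts in the shallow library. The log2 fold change of MYLIP was -0.07 at 10 mg/kg (95% interval -0.41 to 0.27) and -0.10 at 30 mg/kg (-0.43 to 0.22), with adjusted p of 0.967 and 0.987 by edgeR.

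ABCA1, which loads cholesterol and phospholipid onto apolipoprotein A-I, had 6.47, 12.8, 9.76, 13.3, 8.19 and 12.4 CPM at 10 mg/kg. At 30 mg/kg it had 10.2, 8.32, 6.70, 8.73, 6.03 and 11.5 CPM, and vehicle tumours had 11.1, 7.39, 11.5, 12.8, 14.2 and 9.46 CPM. The groups overlapped at both doses. Its fitted log2 fold change was -0.12 at 10 mg/kg (95% interval -0.57 to 0.32, adjusted p 0.891 by edgeR) and -0.35 at 30 mg/kg (-0.78 to 0.08, adjusted p 0.774). Exact permutation of the libraries at 30 mg/kg against vehicle gave p = 0.0909.

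ABCG1, which exports cholesterol to high-density lipoprotein, was the least deeply counted member, with 3 to 22 counts per library. It had 2.59, 8.56, 1.74, 6.37, 1.29 and 2.77 CPM at 10 mg/kg. Its values at 30 mg/kg were 0.598, 2.02, 2.63, 2.83, 0.822 and 2.34 CPM, and in vehicle tumours 2.71, 0.844, 0.705, 2.64, 2.45 and 0.970 CPM. Replicates 2 and 4 at 10 mg/kg stood above every other library. The log2 fold change was 0.88 at 10 mg/kg (95% interval -0.16 to 1.91, adjusted p 0.608 by edgeR) and 0.08 at 30 mg/kg (-0.97 to 1.12, adjusted p 0.999). Such an interval does not exclude a large rise of ABCG1 at this depth.

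The same 2 libraries had the most olfactory receptor counts, given above, and the highest summed level of 14 macrophage and leukocyte markers, of which 3 were tested and 0 passed. That sum was 158 CPM in 10 mg/kg replicate 2 and 32.7 CPM in replicate 4. Over whole groups it ran from 15.5 to 158 CPM at 10 mg/kg, 13.4 to 23.3 CPM at 30 mg/kg and 11.5 to 18.9 CPM in vehicle tumours. Of the defining markers, C1QA and TYROBP had no count in 15 of 18 libraries, CD163 in 11 and PTPRC in 9. CD68, LYZ, CSF1R and ITGAM were counted in all 18, with medians of 6.28, 4.85, 2.46 and 1.21 CPM. Sums for other cell types were also high in replicate 2. Endothelial markers summed to 94.1 CPM in replicate 2 and 22.9 CPM in replicate 4, against at most 19.7 CPM elsewhere. Hepatocyte and adipocyte markers summed to 51.3 and 9.84 CPM, against at most 7.12 CPM elsewhere. Fibroblast markers summed to 317 CPM in replicate 2 and 84.5 CPM in replicate 4, against 61.8 to 109 CPM elsewhere. Without both libraries the log2 fold change of ABCG1 at 10 mg/kg was 0.27 (adjusted p 0.961 by edgeR), and without replicate 2 alone it was 0.73. Over the 18 libraries, the Spearman correlation of ABCG1 with olfactory receptor counts was 0.11 over all 376 genes and 0.26 over the 359 below the filter. On the log2 scale the Pearson correlations were 0.52 and 0.61. The part of these signals in the ABCG1 values was not tested. The tumours grew in mice, these are rows of human genes, and the split of reads between human and mouse is not given. These marker sums therefore cannot be read as amounts of host cells.

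A rise in STARD4 and no call in its LXR-driven counterparts does not by itself show that they differ, so their ratio was compared within each library. The log2 ratio of STARD4 to MYLIP averaged 1.11 ± 0.404 at 10 mg/kg and 1.23 ± 0.388 at 30 mg/kg, against 0.262 ± 0.146 in vehicle tumours (SD, n = 6 each). The highest ratio at 10 mg/kg, 1.92, was that of replicate 2 and rests on 12 counts of STARD4 and 3 of MYLIP. All dosed libraries were above the highest vehicle library, and exact two-sided permutation gave p = 0.00216 at each dose, or 0.00433 adjusted over the 6 ratio tests. The log2 ratio of STARD4 to ABCA1 averaged 2.25 ± 0.346 at 30 mg/kg against 1.05 ± 0.289 in vehicle tumours, a difference of 1.20 with 6 of 6 libraries above (exact permutation p = 0.00216, adjusted 0.00433). At 10 mg/kg that ratio averaged 1.73 ± 0.501, a difference of 0.67, with 3 of 6 libraries above the highest vehicle library (exact permutation p = 0.0260, adjusted 0.0390).

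With ABCG1 the ratio did not separate the groups. The log2 ratio of STARD4 to ABCG1 averaged 3.26 ± 1.10 at 10 mg/kg and 4.27 ± 0.586 at 30 mg/kg, against 3.53 ± 0.652 in vehicle tumours. The difference was -0.27 at 10 mg/kg (exact permutation p = 0.619) and 0.74 at 30 mg/kg (exact permutation p = 0.0844, adjusted 0.101). With 2 CPM added in place of 0.5 CPM, the difference at 30 mg/kg passed, with an adjusted p of 0.00325 by exact permutation. That addition is above the mean of ABCG1 itself, 1.87 CPM at 30 mg/kg and 1.72 CPM in vehicle tumours. It damps ABCG1 in the ratio, so this pass says little about ABCG1.

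**Figure D4:**
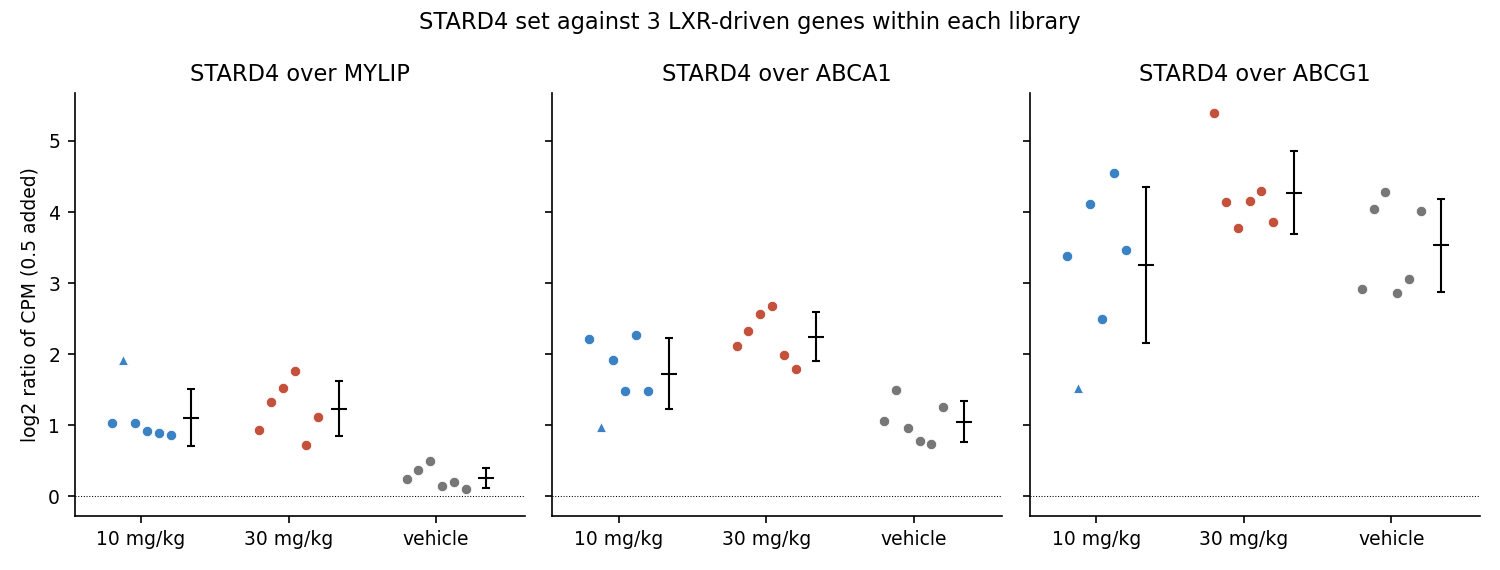
Log2 ratio of STARD4 to MYLIP, ABCA1 and ABCG1 in each library (0.5 CPM added to both), with the mean and SD of 6 libraries beside each group and 10 mg/kg replicate 2 as a triangle. The ratio to MYLIP lies above all vehicle libraries at both doses, the ratio to ABCA1 at 30 mg/kg, and the ratio to ABCG1 overlaps at both.

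Neither receptor gene passed the test. NR1H2, the LXR present in most tissues, had 37.5, 38.5, 36.7, 56.7, 40.1 and 43.1 CPM at 10 mg/kg. The libraries at 30 mg/kg had 38.5, 43.9, 45.2, 40.8, 41.1 and 37.3 CPM, and vehicle tumours had 37.7, 38.4, 49.4, 30.5, 40.5 and 43.2 CPM. The libraries at 30 mg/kg all lay inside the vehicle range. Its log2 fold change was 0.09 at 10 mg/kg (95% interval -0.17 to 0.35) and 0.04 at 30 mg/kg (-0.21 to 0.30), with adjusted p of 0.856 and 0.993 by edgeR.

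NR1H3, the LXR best known from liver, intestine and macrophages, had 10.3, 15.0, 11.3, 11.0, 10.1 and 15.1 CPM at 10 mg/kg. It had 11.2, 11.9, 9.57, 9.50, 11.8 and 8.73 CPM at 30 mg/kg, and 12.7, 13.5, 12.7, 13.8, 12.3 and 13.6 CPM in vehicle tumours. Every library at 30 mg/kg was below the lowest vehicle library, while at 10 mg/kg 4 of 6 were below and 2 above the vehicle range. The log2 fold change at 30 mg/kg was -0.32 ± 0.15 (SE), with a 95% interval from -0.63 to -0.02, an unadjusted p of 0.0382 and an adjusted p of 0.575 by edgeR. Exact permutation gave p = 0.00216 at 30 mg/kg and p = 0.260 at 10 mg/kg. The log2 fold change at 10 mg/kg was -0.15 (adjusted p 0.785 by edgeR). Each library holds 7 to 94 counts of NR1H3. The vehicle libraries hold 50 to 68, and how far their range is narrow by chance was not tested.

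Lists of related genes give the setting of the 8 members. Of 22 genes of SREBP-driven cholesterol synthesis and its regulation, all tested, 14 rose and 0 fell at 10 mg/kg. At 30 mg/kg 17 rose and 0 fell. Their median log2 fold change was 0.71 at 10 mg/kg and 0.88 at 30 mg/kg, against -0.01 and -0.00 over all tested genes. INSIG1, which retains SREBP precursors in the endoplasmic reticulum, rose by 1.48 and 1.60 on the log2 scale. HMGCS1, MVD and MSMO1, enzymes of the pathway, rose by 1.23, 1.07 and 1.11 at 10 mg/kg and by 1.45, 0.94 and 1.37 at 30 mg/kg. STARD4 lay inside this list by log2 fold change, with 14 of the 22 genes above it at 10 mg/kg and 9 at 30 mg/kg. That of NPC1 was below most of them, with 20 and 21 of 22 above it. Without 10 mg/kg replicate 2, 18 and 20 of the 22 were called, and with replicates 2 and 4 both left out, 16 and 20.

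Of 12 lipoprotein uptake genes, 8 were tested, and 2 rose at each dose and 0 fell, with median log2 fold changes of 0.22 at 10 mg/kg and 0.26 at 30 mg/kg. SCARB1, the receptor for high-density lipoprotein, had log2 fold changes of 0.33 and 0.32 and did not pass (adjusted p 0.393 and 0.469 by edgeR). By voom with sample weights it passed at 10 mg/kg (adjusted p 0.0310) and not at 30 mg/kg (0.0880). Of 13 genes of lysosomal and vesicular sterol export 12 were tested and 0 passed at either dose by edgeR on all libraries. LIPA, the lysosomal acid lipase that frees cholesterol for NPC2 and NPC1, had 0.45 and 0.48 (adjusted p 0.241 and 0.149). TMEM41B, a scramblase of the endoplasmic reticulum, had 0.20 and 0.45 (adjusted p 0.593 and 0.061). Whether these 2 genes passed at 30 mg/kg changed with the libraries and the method. Without 10 mg/kg replicate 2 LIPA had an adjusted p of 0.0403 and TMEM41B 0.0316 by edgeR, and DESeq2 on all libraries gave 0.0314 and 0.00815. TMEM41B also passed without vehicle replicate 3 (0.0380) or 30 mg/kg replicate 5 (0.0471). Voom with sample weights gave LIPA an adjusted p of 0.0252 at 10 mg/kg and 0.0127 at 30 mg/kg. LIPA also passed at 10 mg/kg by edgeR without both 10 mg/kg replicate 2 and 30 mg/kg replicate 5 (0.0486). The medians of this list were 0.14 and 0.16.

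Other sterol carriers did not follow STARD4 past the test. Of 20 sterol transfer proteins 19 were tested and 0 passed at either dose, with medians of -0.03 and 0.08. OSBPL6, an oxysterol-binding protein relative, had log2 fold changes of 0.51 and 0.19 (adjusted p 0.325 and 0.922 by edgeR), and OSBPL3 had -0.28 and -0.07 (adjusted p 0.428 and 0.973). Of 6 genes of sterol esterification and ester hydrolysis, 4 were tested and 0 passed by edgeR on all libraries. LIPA, which is in this list too, made it 1 at both doses by voom with sample weights. At 30 mg/kg it did so also by DESeq2 or without 10 mg/kg replicate 2. SOAT1, which esterifies cholesterol for storage, had -0.03 and -0.09 (adjusted p 0.960 and 0.951). Whether STARD4 differs from these carriers was not tested.

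Calls in the wider LXR branch stand beside 0.419% of all tested genes called higher at 10 mg/kg and 0.568% at 30 mg/kg. In lists of 4 to 13 tested genes 1 call is already a larger share, so these counts do not show a quiet branch. Of 10 oxysterol and LXR ligand enzymes 4 were tested, with medians of 0.36 at 10 mg/kg and 0.44 at 30 mg/kg. By edgeR on all libraries 0 were called at 10 mg/kg and 1 rose at 30 mg/kg. DESeq2 and voom with sample weights called 1 at each dose, and so did edgeR without 10 mg/kg replicate 2. With no filter, with the replicate number as a block or on log2(TPM + 1), the call at 30 mg/kg was lost. Of 20 other LXR targets 12 were tested, and 1 rose at each dose, SCD, a fatty acid desaturase that SREBPs also drive, with log2 fold changes of 0.93 and 1.18 (adjusted p 0.0301 and 0.00225 by edgeR). At 10 mg/kg that call was lost by limma-voom (0.204), with no filter (0.166), with the compared groups alone (0.112) and on log2(TPM + 1) (0.573, and 0.274 at 30 mg/kg). It was also lost without vehicle replicate 1, 2, 4, 5 or 6 or without replicate 1, 3, 4 or 6 at 10 mg/kg, with adjusted p from 0.0551 to 0.0969. The list's median was 0.06 at 10 mg/kg and 0.01 at 30 mg/kg. Of 10 other efflux genes 8 were tested and 0 passed by edgeR on all libraries, with medians of 0.07 and 0.03. Voom with sample weights called 1 of them at 10 mg/kg. ABCA7, a transporter related to ABCA1, had 0.39 and 0.16 (adjusted p 0.407 and 0.928 by edgeR). Of 14 LXR partners, corepressors and coactivators 13 were tested and 0 passed. RXRB, a partner of LXRs, had -0.14 and -0.23 (adjusted p 0.804 and 0.825), and TBL1X, a corepressor subunit, had 0.18 and 0.21 (adjusted p 0.593 and 0.571).

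**Figure D5:**
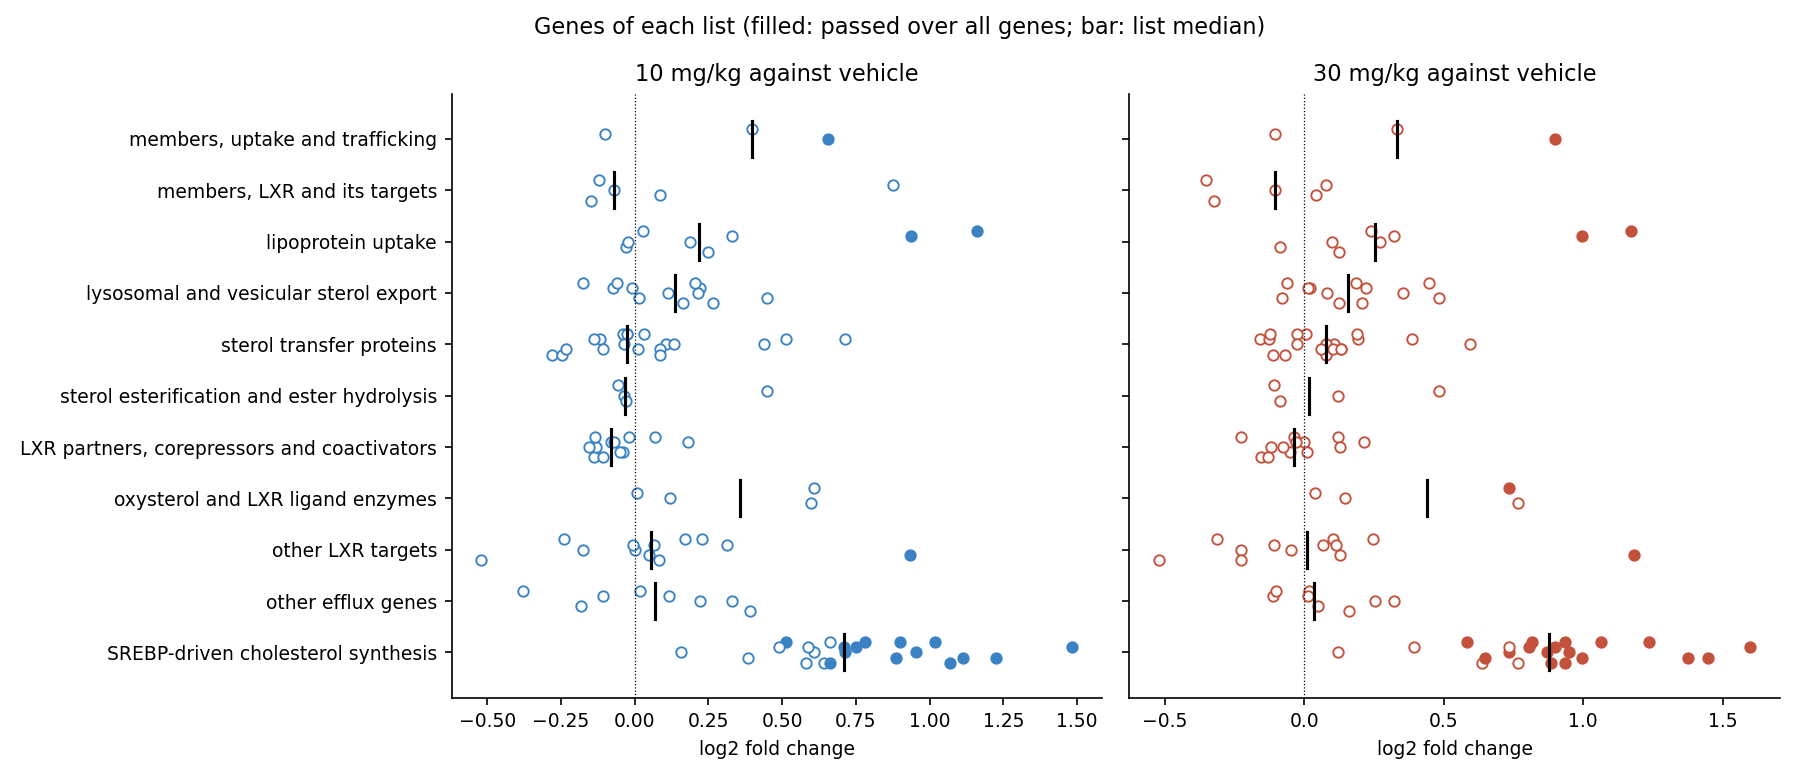
Log2 fold change over vehicle of each tested gene by list, at 10 mg/kg (left) and 30 mg/kg (right), with filled circles for genes that passed 0.05 after adjustment over all genes and a bar at each list's median. The SREBP-driven synthesis genes have medians of 0.71 and 0.88, and the oxysterol and LXR ligand enzymes 0.36 and 0.44. The lists of LXR partners, other LXR targets and other efflux genes have medians between -0.08 and 0.07.

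Across the 18 libraries, the genes whose log2 level ran most like that of STARD4 were MSMO1 and INSIG1, both of the SREBP list, and EMP1, with Spearman correlations of 0.91, 0.88 and 0.87. In 30 mg/kg replicate 5, the lowest for STARD4 at that dose, MSMO1 was also lowest, at 53.1 CPM, and in replicate 4, the highest, it was highest, at 86.6 CPM. These correlations describe libraries that share the dose groups and differ in depth. Of the 24 genes named here as most alike, 11 stayed among the 3 highest of their member without 10 mg/kg replicate 2, and 13 did not, their ranks reaching 9; MSMO1, EMP1 and INSIG1 then ranked 2, 4 and 5 for STARD4. NPC1 ran most like CEBPG, LONRF2 and MIR22HG (0.84, 0.82 and 0.82), and NPC2 like AP1M1, CLYBL and AP5S1 (0.79, 0.77 and 0.76). MYLIP ran most like CLHC1, C2CD3 and ITPR2 (0.91, 0.88 and 0.87), ABCA1 like SPRY1, CUBN and RPL23AP53 (0.79, 0.78 and 0.76), and ABCG1 like BMP7, PAXBP1-AS1 and ZNF710 (0.82, 0.79 and 0.76). NR1H2 ran most like GTF2H5, SNORA22 and PWP1 (0.81, 0.77 and 0.73), and NR1H3 like PTOV1-AS1, CCN2 and XRCC2 (0.86, 0.85 and 0.84). Among the members themselves, STARD4 and NPC1 had a correlation of 0.53, and STARD4 and NR1H3 one of -0.70, or -0.74 over the 17 libraries without 10 mg/kg replicate 2.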

How the data were processed

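Total RNA was extracted from 18 homogenised tumours with a Promega Maxwell kit, and 5 ng each went into Clontech SMARTer Stranded pico-input libraries, per the labels' protocols. STAR 2.4.2a is named with the builds hg19 and mm10, per the submitters' processing notes. Neither the role of each build, nor the split of reads between human and mouse, nor the quantifier is given in the sources used here. Expected counts (estimated reads per gene, not scaled) and TPM (scaled for transcript length and depth) are what the authors deposited per gene, per the file headers. Gene symbols were matched by Entrez ID for 25220 of 25343 genes and by transcript accession for 26.

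Expected counts were rounded, filtered by filterByExpr (14074 genes), scaled by TMM and fitted over all 18 libraries with edgeR 4.0.16 (robust quasi-likelihood, R 4.3.3), with Benjamini-Hochberg adjustment over all tested genes and a threshold of 0.05. SEs and 95% intervals come from the F statistic; for genes with few counts edgeR can give a larger p than its SE implies. CPM are TMM-scaled. Permutation tests used log2(CPM + 0.5) over 924 arrangements, and TPM served for levels and an alternative with limma 3.58.1. DESeq2 1.42.0 was an alternative. On simulated data with 200 changed genes, the edgeR fit found 47.8% of 1.5-fold and 82.1% of 2-fold changes at 10 mg/kg, and 53.7% and 89.6% at 30 mg/kg, while 9.47% and 6.36% of calls were false. The simulated spread followed the trend over genes, with no spread particular to a gene. Libraries differed in depth only, unlike 10 mg/kg replicate 2, so these rates may not hold for the real data.

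The members and the gene lists were chosen with earlier results of these data known. Named from each list were up to 4 called genes by smallest p, or, with none called, the 2 with the smallest p; 3 genes of highest Spearman correlation (mean of at least 5 CPM, prior count 2) were named per member. Some genes of the lists are counted but not reported by name here. Count precision follows depth, 433981 to 8538792 per library, and intervals cover these libraries only. Promoters came from RefSeq, and their coordinates are not those of the files' build.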

Additional observations from a re-analysis of the deposited data

Results flagged for a closer look

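NR1H2 in 10 mg/kg replicate 4 stood far from the other 5 libraries of its group, at 56.7 CPM against 36.7 to 43.1 CPM. It was the only such library among 24 combinations of a gene and a group, where chance gives about 1 in 20. The same library had the second highest olfactory receptor level, 2.09 CPM per kilobase, and their relation was not tested.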

How the results depend on the processing

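No result changed direction while called. The number of genes called at 10 mg/kg was 66, and 32 with no filter, 159 by DESeq2, 235 by voom with sample weights, 12 and 11 by limma on log2(TPM + 1) and log2(TPM + 0.1), 36 with the compared groups alone, and 135 without replicate 2 at 10 mg/kg plus replicate 5 at 30 mg/kg. At 30 mg/kg it was 87, and 57, 179, 315, 23 and 26, 191 and 212 under the same settings, and 188 with 10 mg/kg replicates 2 and 4 left out, a choice made after seeing the data. Leaving out each library in turn gave 31 to 121 genes at 10 mg/kg and 61 to 182 at 30 mg/kg. Both highest counts came without 10 mg/kg replicate 2; at 10 mg/kg, 42, 40 and 31 came without vehicle replicates 1, 2 and 5. The cause was not tested. Between the doses 0 genes were called in every setting run.

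Libraries with the same replicate number did not deviate together: their correlations ran from -0.281 to 0.224 over 18 pairs, 3 of them over 0.1, and 6 of 36 best matches shared a number. With the replicate block, 24 genes were called at 10 mg/kg and 60 at 30 mg/kg, and STARD4 had adjusted p of 0.167 and 0.0121 by edgeR. With no filter, STARD4 at 10 mg/kg had an adjusted p of 0.171. The log2 ratio of STARD4 to ABCG1 differed by 0.072 at 10 mg/kg without replicate 2. At 30 mg/kg it differed by 0.74 (adjusted p 0.00325, exact permutation) with 2 CPM added, which is more than the mean of ABCG1 itself. The synthesis genes called at 10 mg/kg, 14 of 22, were 3 on log2(TPM + 1), 7 with the block or no filter, 9 with the compared groups alone, and up to 19 by voom with sample weights; at 30 mg/kg, 17 of 22, they were 5 on log2(TPM + 1) and 14 to 21 in the other settings. SCD at 10 mg/kg had an adjusted p of 0.105 with the block. Depth limits ABCG1 most, with 3 to 22 counts per library.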
